A study of Mus musculus with 4 samples.

Results

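The cells described here were myofibroblast-type fibroblasts of the mouse pancreas and of pancreatic tumours, chosen by a rule on their own UMIs (unique molecular identifiers, each standing for 1 captured RNA molecule). A barcode was kept with at least 500 UMIs, at least 250 genes and at most 20% mitochondrial UMIs. It was a fibroblast when Col1a1, Col1a2, Col3a1, Dcn and Lum together made up at least 1% of its UMIs and Ptprc and Pecam1 had at most 1 UMI each. A fibroblast was myofibroblast-type when its UMIs of Tnc, Col8a1, Tagln and Col12a1 together exceeded those of Dpt, Clec3b, Gpx3 and Lum, and Dpt-type when the order was reversed. The rule took 388 of the 2046 fibroblasts among 44162 kept barcodes, and 1624 fibroblasts were Dpt-type. Since measured values chose the cells, the levels of these 8 genes and of the gate's genes are descriptions.

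Cells of 4 mouse samples were sequenced singly, 1 library to a group: normal pancreas, suture-ligated pancreas, and KPC tumours given either saline (the control) or AF12198. Ligation blocks the pancreatic duct and brings on pancreatitis, and both tumours grew from KPC cells, which are mouse pancreatic cancer cells, injected into a ligated pancreas. Saline or AF12198, a peptide that blocks IL1R1, the receptor of interleukin-1, was injected into the peritoneum of tumour-bearing mice each week, and tissue was taken at 4 weeks. The labels give no strain, age or sex and no injection for the normal and ligated groups, and all tissue was digested with collagenase before droplets were made. With 1 library per group no test was possible and no p-value is given: all intervals are 95% and cover counting error only, so a difference between libraries may come from the treatment, the animal or the preparation.

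Myofibroblasts are fibroblasts that build contractile bundles of smooth muscle actin and lay down dense matrix. They appear in healing wounds and in the stroma of pancreatic cancer, where cancer-associated fibroblasts (CAFs) are commonly divided into myofibroblastic cells, which respond to TGF-beta, and inflammatory cells, which respond to interleukin-1 and secrete cytokines and acute-phase proteins. Tenascin-C (Tnc) is a large glycoprotein of remodelling matrix, Col8a1 and Col12a1 encode collagen chains that do not form fibrils by themselves, and transgelin (Tagln) binds actin filaments. Serpine2 encodes protease nexin 1, an inhibitor of thrombin and other serine proteases, and was given as a marker of these cells without being part of the rule.

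In GRCm38 (mm10), Tnc lies at chr4:63959785-64047015, Col8a1 at chr16:57624258-57754737, Tagln at chr9:45929619-45936058 and Col12a1 at chr9:79598991-79718831, all protein-coding and on the minus strand. Serpine2 lies at chr1:79794197-79861180, also on the minus strand. UMIs from 3' libraries are counted over the whole gene here and were not assigned to exons or introns.

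No myofibroblast-type cell was found among 99 fibroblasts of the normal pancreas, which allows a share of up to 3.03% by the usual limit of 3 counts (the exact binomial interval ends at 3.66%). The ligated pancreas held 12 among 250 fibroblasts, or 4.80% (exact binomial interval 2.50 to 8.23%). The control tumour held 258 among 1228, or 21.0% (18.8 to 23.4%), and the AF12198-treated tumour 118 among 469, or 25.2% (21.3 to 29.3%). The share of fibroblasts was thus 4.38 times that of the ligated pancreas in the control tumour (2.46 to 8.58) and 5.24 times in the treated tumour (2.89 to 10.4). Between the tumours it differed by a ratio of 1.20, with an interval of 0.955 to 1.49 that includes 1. The direction rested on Tagln: with Tagln left out of the rule the shares were 18.1% in the control and 16.2% in the treated tumour, a ratio of 0.896 (0.681 to 1.17). With a stricter cell filter, with Ptprc and Pecam1 at 0, or with cells thinned to 1000 UMIs, the ratio was 1.28, 1.33 and 1.28, and its interval began above 1 (1.005, 1.03 and 1.01).

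Kept barcodes numbered 1772 in the normal and 1124 in the ligated pancreas, 21398 in the control and 19868 in the treated tumour, and the members made up 0, 1.07, 1.21 and 0.594% of them. The treated tumour's share was 0.493 times the control tumour's on this scale (0.393 to 0.615), and fibroblasts as a whole were 5.74% of barcodes in the control and 2.36% in the treated tumour. The share of fibroblasts and the share of all barcodes therefore pointed in different directions between the tumours. Fibroblasts were 5.59% of barcodes in the normal and 22.2% in the ligated pancreas.

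**Figure D1:**
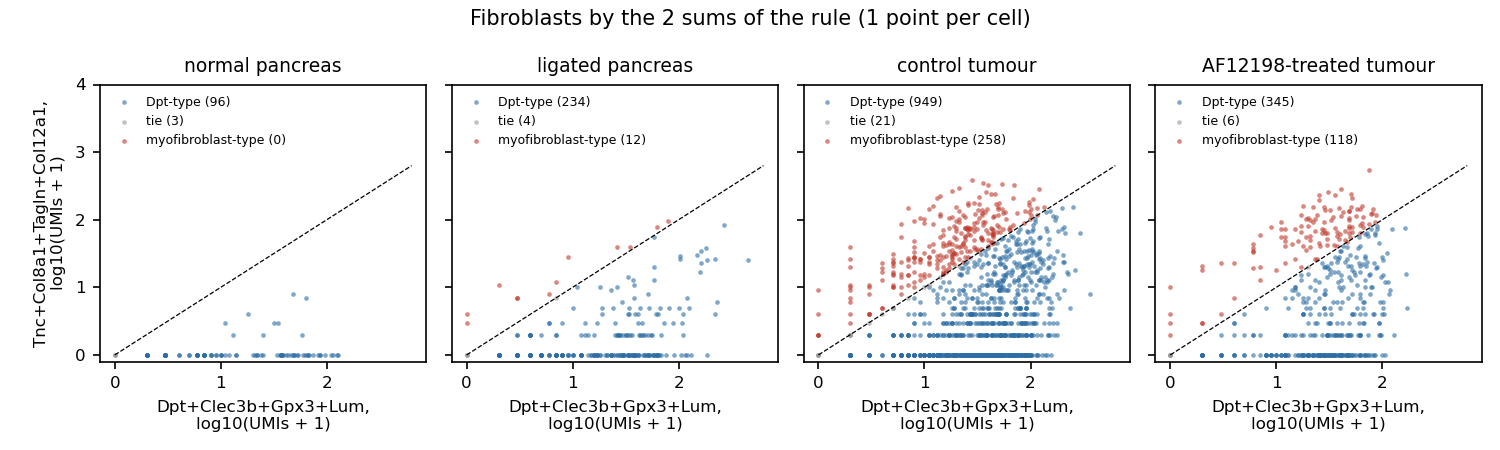
Each point is 1 fibroblast, with the summed UMIs of Dpt, Clec3b, Gpx3 and Lum on the x axis and of Tnc, Col8a1, Tagln and Col12a1 on the y axis, both as log10(UMIs + 1), in 1 panel per library. Points above the dashed line are the members: 0 in the normal pancreas, 12 in the ligated pancreas, 258 in the control tumour and 118 in the treated tumour.

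Members differed widely in how far they stood over the line. The difference between the sums had a median of 5 UMIs in the ligated pancreas, 20 in the control tumour and 35 in the treated tumour, and reached 19, 359 and 468 UMIs. It was at least 10 UMIs in 4, 189 and 98 members. Just inside the rule (a difference of 1 or 2 UMIs) were 24 cells of the control tumour with medians of 12 myofibroblast-gene and 10.5 Dpt-type-gene UMIs, and 8 cells of the treated tumour with 2.5 and 1.5. Just outside (a difference of 0 to -2) were 51 cells with medians of 1 and 2 UMIs and 25 cells with 0 and 1. Cells near the line in the control tumour thus included some with ample UMIs of both kinds.

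The members were deep cells. Their median was 6444 UMIs in the ligated pancreas, 9437.5 in the control tumour and 16544 in the treated tumour, against 4995.5, 7263 and 7481 in Dpt-type cells. Their UMIs summed to 140532, 3058591 and 1880486, and levels below are in CPM, a gene's UMIs divided by this sum of its class and library on the usual counts-per-M scale. No barcode was shared between members of different libraries, and 4 member barcodes of the tumours also occurred as some other barcode in the other tumour. In members Y-linked genes summed to 258 CPM in the control and 164 CPM in the treated tumour, near Dpt-type cells (303 and 200) and above epithelial cells of the same libraries (42.1 and 23.7), and Xist had 0 UMIs.

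Of general fibroblast markers, all 10 (Pdgfra, Pdgfrb, Fap, Pdpn, Thy1, Col5a1, Col6a3, Fbln2, Mmp2 and Sparc) were detected in members of both tumours, with sums of 15398 CPM in the control and 15469 CPM in the treated tumour. Markers of T cells (10.5 and 7.44 CPM), endothelium (42.8 and 19.1) and glia (1.63 and 1.06) were close to 0. Markers of macrophages summed to 315 and 188 CPM (374 and 491 in Dpt-type cells), of neutrophils to 305 and 384 (375 and 676), of mesothelium to 209 and 98.4 (461 and 224) and of epithelium to 235 and 18.6 (203 and 71.9). At least 2 UMIs of macrophage genes were present in 60.1% of control and 52.5% of treated members. What these sums bring to the results was not tested. Markers of pericytes, the contractile cells that wrap capillaries, summed to 250 and 161 CPM against 94.9 and 109 in Dpt-type cells, and those of smooth muscle to 284 and 472 CPM against 120 and 91.3. At least 2 UMIs of pericyte genes were present in 48.1% of control and 45.8% of treated members, and at least 2 of smooth muscle genes in 48.4% and 67.8%. Since Tagln and Acta2 are also expressed by both cell types, main results are given below without these members where they differ, which leaves 69 and 24 cells. That alternative takes cells out of the members only, and Dpt-type cells with such UMIs (22.7% and 16.8% for smooth muscle genes) stay in.

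Tnc, the gene that led most often in the control tumour, stood at 853.9 CPM in the 12 ligated members, 1946 CPM in the control tumour (1897 to 1996) and 1169 CPM in the treated tumour (1121 to 1219). In Dpt-type cells it was at 0 UMIs in the normal pancreas and at 130 CPM in the ligated pancreas, 207 in the control and 117 in the treated tumour. Members of the tumours were thus 9.42 and 9.96 times as high as their Dpt-type neighbours. Col8a1 stood at 448.3, 1517 and 701 CPM in the same order, and 62 of its 63 UMIs in the ligated members came from 1 cell. Tagln stood at 498.1, 1328 and 2429 CPM, and was the one gene of the rule that stood higher in the treated tumour. Col12a1 differed least between the tumours, at 483.9, 1157 and 920 CPM.

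The leading gene differed between the tumours. In the control tumour Tnc was the highest of the 4 rule genes in 29.5% of members, Col8a1 in 25.6%, Col12a1 in 20.5% and Tagln in 20.2% (15.4 to 25.6%). In the treated tumour Tagln led in 58.5% (49.0 to 67.5%), Tnc in 21.2%, Col12a1 in 13.6% and Col8a1 in 5.08% (1.89 to 10.7%). The class was therefore close to evenly divided in the control tumour and Tagln-led in the treated one. All 4 genes were detected together in 56.2% of control and 63.6% of treated members, and in none of the 12 ligated ones. The median cell had 8 UMIs of Tnc, 9.5 of Col8a1, 5 of Tagln and 7 of Col12a1 in the control tumour, and 11, 5, 24 and 9 in the deeper cells of the treated tumour.

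The difference was also present at equal depth. After each cell was thinned to 1000 UMIs, which left out 3 members in each tumour, Tagln was found in 49.0% of control and 70.4% of treated members, and Col8a1 in 62.4% and 44.3%. Before thinning, Tagln was found in 77.1% and 92.4%. In T cells, which should lack the gene and whose median depth is 2967 and 3394.5 UMIs, thinned Tagln was found in 0.730% and 0.354%, and in Dpt-type cells in 9.79% and 8.68%. Both genes are part of the rule, so these shares describe the choice of cells.

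Serpine2, which the rule did not read, was at 1279 CPM in control members (1240 to 1320) and 509 CPM in treated members (477 to 542). Dpt-type cells had 261 and 271 CPM, so that the members stood 4.90 times as high in the control tumour (4.65 to 5.17) and 1.88 times in the treated tumour (1.71 to 2.07). In the normal pancreas, where no member was found, Dpt-type cells had 766 CPM of Serpine2. The marker therefore separated the classes clearly in the control tumour and less in the treated one, and in the normal pancreas the rule's 4 genes stood between 0 and 41.0 CPM in the same cells.

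**Figure D2:**
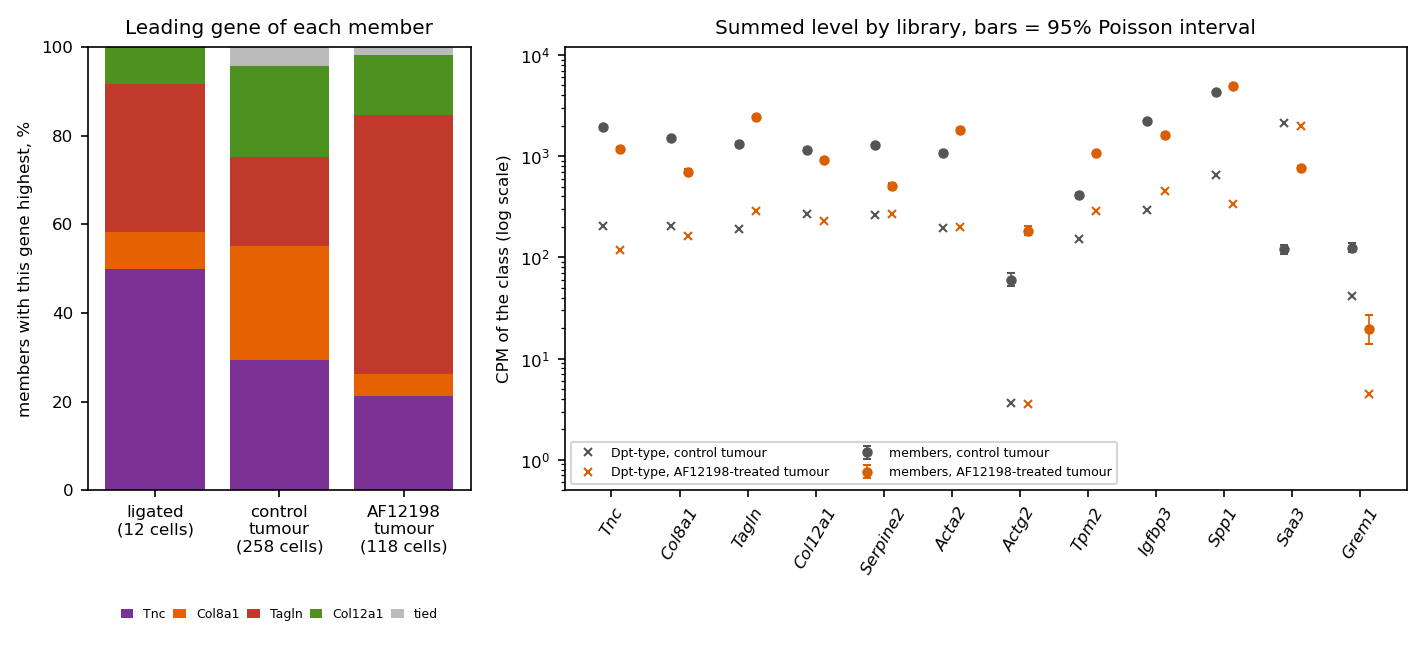
The left panel shows the share of members in which each rule gene was the highest, by library. The right panel shows CPM of 12 genes on a log axis in members (points, with 95% Poisson intervals) and Dpt-type cells (crosses) of both tumours. Tagln led in 20.2% of control and 58.5% of treated members, and Saa3 rose from 120 to 765 CPM while Grem1 fell from 125 to 19.7 CPM.

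Members were then set against Dpt-type fibroblasts of the same library, so that animal and digestion were shared. Acinar enzymes summed to 23.2 and 137 CPM in members against 328 and 1151 CPM in Dpt-type cells, and 5 of 5 acinar genes were lower in members. At least 2 UMIs of them were present in 3.88% of control and 52.5% of treated members, against 5.48% and 45.2% of Dpt-type cells. The source of these UMIs was not tested. A gene counted as higher or lower when log2(CPM + 1) differed by at least 2-fold, with the interval of the ratio on that side of 1, in both tumours, and the genes of the rule and the gate were left out. Of 5768 genes past a filter on low values, 107 (1.86%) were higher and 187 (3.24%) lower. The median of all genes stood at 0.11 (control) and 0.10 (treated) on the log2 scale. The cells were chosen on genes of this same contrast, so nothing is read from the shares of lists against these percentages.

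Part of the contractile list was higher in members. Of 20 genes tested, 7 were higher, none lower and 13 not counted, and the rule selects on Tagln, a gene of the same list, with medians of 0.91 (control) and 1.06 (treated) on the log2 scale. Acta2, smooth muscle actin, stood at 1088 CPM in control and 1836 CPM in treated members against 195 and 200 CPM in Dpt-type cells, a ratio of 5.59 (5.27 to 5.94) and 9.20 (8.44 to 10.0). Actg2, the enteric smooth muscle actin, was at 60.2 and 184 CPM against 3.64 and 3.55, which made it 16.5 times (11.2 to 25.2) and 51.9 times (28.6 to 105) as high. Myl9, a myosin regulatory light chain, was 5.15 and 6.66 times as high, the tropomyosins Tpm2 and Tpm1 2.72 and 3.68, and 2.32 and 3.17, and the actin-binding Csrp1 2.26 and 2.92. Genes of the general cytoskeleton were closer: Myh9, non-muscle myosin, stood at ratios of 1.94 and 1.65 and Lmna, a lamin, at 1.38 and 1.25. Without members that carry pericyte or smooth muscle UMIs, the smaller log2 ratio of Acta2 went from 2.48 to 1.51. For Actg2 that alternative says nothing, since its own UMIs were used to leave cells out.

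Promoters of several contractile genes carry a CArG box, the site of serum response factor, and the windows of this list that hold one are shown. In the 250 bases before the start in RefSeq (GRCm38.p6), 3 of 20 contractile genes with a window hold at least 1 box on either strand, against 1.62% of 27025 genes. Myl9 has it 161 bases before the start (chr2:156775214-156775463, plus strand), the calponin gene Cnn2 56 bases before (chr10:79988350-79988599, plus strand) and Vcl, which encodes vinculin, 227 bases before (chr14:20929148-20929397, plus strand). The box is in capitals:
Myl9: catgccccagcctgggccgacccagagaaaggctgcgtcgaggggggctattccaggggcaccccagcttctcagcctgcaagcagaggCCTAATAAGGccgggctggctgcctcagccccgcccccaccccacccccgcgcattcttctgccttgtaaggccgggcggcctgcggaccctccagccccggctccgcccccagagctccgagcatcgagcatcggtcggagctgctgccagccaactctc
Cnn2: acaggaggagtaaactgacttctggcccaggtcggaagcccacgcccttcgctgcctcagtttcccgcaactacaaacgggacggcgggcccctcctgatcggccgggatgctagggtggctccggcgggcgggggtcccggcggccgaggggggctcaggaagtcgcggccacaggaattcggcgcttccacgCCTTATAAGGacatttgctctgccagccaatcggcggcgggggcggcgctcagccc
Vcl: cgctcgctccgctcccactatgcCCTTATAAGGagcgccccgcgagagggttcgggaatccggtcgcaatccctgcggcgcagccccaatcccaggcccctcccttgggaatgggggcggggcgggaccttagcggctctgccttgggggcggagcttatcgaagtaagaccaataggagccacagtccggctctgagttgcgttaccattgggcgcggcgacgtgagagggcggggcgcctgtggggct
Cnn2 was among the genes counted as higher, at 285 and 262 CPM against 110 and 107 in Dpt-type cells, while T cells had 266 and 213. Vcl stood at ratios of 2.01 and 1.82 and was not counted. A match is a description of these letters, and Tagln and Actg2 have no window here.

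Of the myofibroblastic CAF list, 12 of 15 genes tested were higher and none lower, with medians of 1.92 and 1.83. This list was drawn up with results of these data known and shares members with the contractile list. Postn, Thy1 and Ncam1 were not counted. Igfbp3, which binds insulin-like growth factors, stood at 2245 CPM in control and 1624 CPM in treated members against 293 and 456 in Dpt-type cells, ratios of 7.67 and 3.56. Lrrc15, a membrane protein known from myofibroblastic CAFs, was at 64.4 and 127 CPM against 8.50 and 21.3, ratios of 7.58 and 5.97. Its smaller log2 ratio went from 2.52 to 1.24 without members that carry pericyte or smooth muscle UMIs. Col11a1, a minor chain of fibrillar collagen, was 6.76 and 5.81 times as high, Thbs2, a thrombospondin, 3.24 and 2.51 times, and Cthrc1 2.98 and 2.15 times. Postn, periostin, at 785 and 796 CPM against 452 and 452, stood at 1.74 and 1.76. Fap, the fibroblast activation protein, a gene of another list, stood at 2.14 and 1.56 and was not counted. Among other collagens of the lists Col7a1, the chain of anchoring fibrils, was 4.16 and 5.42 times as high, and the main fibrillar chains Col5a1 and Col5a2 stood at ratios between 1.03 and 1.53.

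Spp1, which encodes osteopontin, a secreted phosphoprotein that binds integrins, was higher in members of both tumours. It stood at 4299 CPM in control members (4226 to 4373) and 4932 CPM in treated members (4832 to 5033), against 652 and 336 CPM in Dpt-type cells, ratios of 6.59 and 14.7. T cells of the same libraries had 744 and 674 CPM, above Dpt-type cells and below members, so the Dpt-type level is not read as expression. The source of these UMIs in T cells was not tested. The ligated members had 2 UMIs of Spp1 in all, or 14.2 CPM (1.72 to 51.4). Of 21 matricellular genes tested, 3 were higher (Spp1, Thbs2 and Ccn2) and 1 lower (Ogn, osteoglycin). Ccn2, a connective tissue growth factor, was at 817 and 578 CPM against 165 and 123.

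In the TGF-beta list 4 of 26 genes were higher and 1 lower, with medians of 0.08 and 0.05. The higher ones were Inhba, the subunit of activin A (464 and 231 CPM against 68.7 and 42.9), Ltbp2, a latent TGF-beta binding protein (284 and 281 against 84.7 and 68.1), Ccn2, and Tgfb1 itself (236 and 177 against 61.7 and 67.4, with T cells at 325 and 308). The co-receptor Tgfbr3 was lower, at ratios that put Dpt-type cells at 263 and 158 CPM and members at 56.6 and 45.2. The receptors Tgfbr1 and Tgfbr2, at 1.46 and 1.35 and at 0.793 and 0.616, and the feedback gene Smad7, at 0.958 and 0.783, were not counted. Among protease inhibitors Timp1 was at 3437 and 4603 CPM (2.87 and 3.28 times Dpt-type cells) and Timp3 at 3856 and 1903 CPM (4.15 and 2.27 times). Lysyl oxidases, which crosslink collagen, were similar in both classes, with Lox at ratios of 1.29 and 1.37.

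Inflammatory CAF genes were divided. Of 22 tested, 4 were higher and 8 lower, with medians of -1.07 and -0.84. Saa3, a serum amyloid A, stood at 120 and 765 CPM in members against 2143 and 2003 in Dpt-type cells, which put Dpt-type cells 17.8 and 2.62 times as high. Complement C3 was at 969 and 1149 CPM against 6305 and 6422, Cxcl12 at 108 and 97.3 against 649 and 439, and Il6 at 164 and 123 against 565 and 356. In contrast the chemokine Cxcl14 was at 1018 and 2232 CPM against 185 and 336 (ratios of 5.50 and 6.64), the cytokine Il11 at 46.1 and 80.8 against 4.86 and 27.7, and the hyaluronan synthase Has2 at 120 and 115 against 40.3 and 34.5. Lif was the other gene counted as higher, and Has1, another hyaluronan synthase, was lower, at 138 and 94.7 against 373 and 254.

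Lower in members were also genes that mark the Dpt-type class, of which 11 of 20 outside the rule were lower and 1 (Cxcl14) higher, with medians of -1.32 and -1.68. Ly6c1, a surface protein, was at 23.9 and 36.2 CPM against 227 and 303, Efemp1, a fibulin, at 47.7 and 44.7 against 411 and 318, and Pi16 at 202 and 144 against 424 and 478. Cxcl13, the B cell chemokine, had 0 UMIs in the members of both tumours and 135.5 and 41.9 CPM in Dpt-type cells. The collagen chain Col6a5 was 42.9 and 28.3 times as high in Dpt-type cells, the flavin monooxygenase Fmo2 15.5 and 24.9 times and the ferritin receptor Scara5 13.1 and 33.1 times. Not all genes of that class were low: Mfap5, a microfibril protein, stood at 856 and 1569 CPM in members and 733 and 1471 in Dpt-type cells.

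Outside the lists the largest ratios among genes counted as higher included Igfbp2 (10.4 and 21.2), the vitamin A transporter Stra6 (9.66 and 11.4), Ptprn (12.9 and 7.998) and Sema7a (8.85 and 5.98). Cspg4, the NG2 proteoglycan and a gene of the pericyte list, was also counted as higher (15.9 and 7.86). The smaller log2 ratio of Igfbp2 went from 3.19 to 1.13 without members that carry pericyte or smooth muscle UMIs. In those remaining 69 and 24 cells 58 genes were higher and 116 lower, of which 35 and 90 were among the genes counted with all members. Receptors were mixed: Pdgfra stood at 219 and 146 CPM against 410 and 301 (not counted), Pdgfrb at 313 and 203 against 182 and 130 (not counted), and Ddr2, a collagen receptor, was lower. Of the calcineurin and NFAT list none of 19 genes was higher or lower, with medians of 0.06 and 0.02, and of the interleukin-1 and NF-kB list none of 23 was higher and 2 (Irak3 and Lcn2) were lower. Il1r1, the receptor that AF12198 blocks, stood at 99.1 and 149 CPM in members and 173 and 164 in Dpt-type cells.

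**Figure D3:**
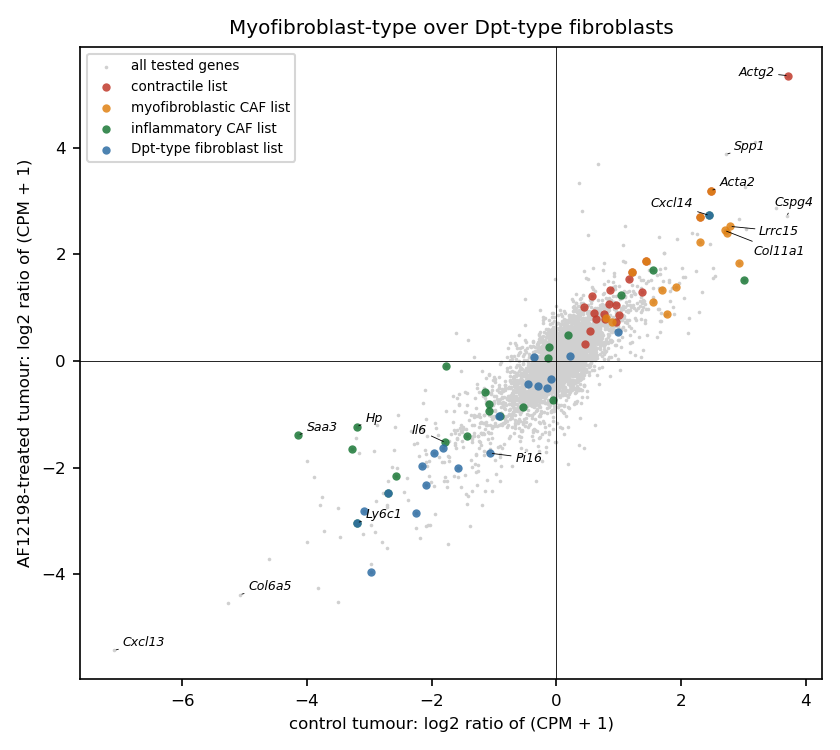
Each point is a tested gene outside the rule, with the log2 ratio of (CPM + 1) of myofibroblast-type over Dpt-type cells in the control tumour on the x axis and in the treated tumour on the y axis. Colours mark 4 lists. Actg2, Spp1, Acta2 and Cxcl14 lie high on both axes, and Saa3 lies at ratios that put Dpt-type cells 17.8 times as high in the control and 2.62 times in the treated tumour.

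Among themselves, members did not carry the 4 rule genes together in proportion. Across 237 control and 111 treated members with at least 3000 UMIs, levels of Tagln and Acta2 rose together (Spearman's rho 0.78 and 0.80), as did Tagln and Tpm2 (0.60 and 0.68). Tagln and Tnc were unrelated in rank (-0.00 and -0.01), and Tnc and Col12a1 were at -0.13 and -0.09. Tnc went with Spp1 (0.31 and 0.51), and Col8a1 with Igfbp3 (0.38 and 0.37) and Serpine2 (0.37 and 0.32). These cells share a library, differ in depth and were chosen on a sum of these genes, which bears on the values among the rule genes. Rank correlation with a cell's total UMIs was 0.34 and 0.30 for Acta2 and 0.22 and 0.10 for Tagln.

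High levels sat in few cells. In the control tumour the 25 members with the most UMIs of a gene held 52.2% of the UMIs of Tnc, 50.2% of Tagln, 57.0% of Acta2, 83.2% of Actg2 and 90.5% of Saa3. In the treated tumour the corresponding 11 members held 37.3% of Tnc, 37.5% of Tagln, 39.8% of Acta2, 58.7% of Actg2 and 71.6% of Saa3. Actg2 and Saa3 therefore describe a minority of the members, and their median level per cell was 0 in both tumours. For Tagln the median cell of the treated tumour had 17.1 UMIs per 10000 against 5.38 in the control tumour, and for Acta2 10.2 against 3.11.

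The members were divided into 7 sub-clusters by their expression, a step added after the data had been seen, and the sub-clusters are given by number. Sub-cluster 1 held 50 control and 28 treated members, sub-cluster 2 held 29 and 40, and sub-cluster 6, led by the proliferation genes Mki67, Ube2c and Top2a, held 19 and 20. Sub-cluster 2 was led by Hp, Thbs4 and Pi16, with Serpina3n and Ccl19 among its 10 leading genes. Sub-cluster 3, led by Bdkrb2, Serpine2, Grem1 and Lpl, held 58 control members and 1 treated member. A sub-cluster mostly of 1 library may be that library and not a kind of cell. Sub-cluster 7, led by Cyp26a1, Igfbp3 and Igfbp2, held 25 and 10 and reached 8116 CPM of Igfbp3.

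Tnc and Tagln had different places among these sub-clusters. Tnc was at 3246 and 2849 CPM in sub-clusters 1 and 3 and at 570 CPM in sub-cluster 2, while Tagln was at 1491, 1008 and 2125 CPM in these 3. Serpine2 ranged from 140 CPM in sub-cluster 4 to 3385 CPM in sub-cluster 3. Genes that lead a sub-cluster were used to form it and are descriptions.

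Markers of other cell types were gathered in 2 sub-clusters. Sub-cluster 4 (36 control, 10 treated and 8 ligated members) had all 7 mesothelial markers and 5 of 8 epithelial markers raised at least 2-fold over the other members, with a mesothelial sum of 524 CPM and an epithelial sum of 671 CPM. Sub-cluster 5 (41, 9 and 2) had all 7 macrophage markers, 5 of 6 neutrophil and 5 of 9 pericyte markers raised, and 11 of its 52 cells among the doublets by score. Of its 276 UMIs of Rgs5, 175 came from 2 ligated cells, and Rgs5 was found in 9.62% of its cells. Across all members 14 of the control and 2 of the treated tumour were doublets by score. Without them, and without 40 control and 14 treated Dpt-type cells that were also doublets by score, 110 genes were higher and 183 lower than in Dpt-type cells.

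**Figure D4:**
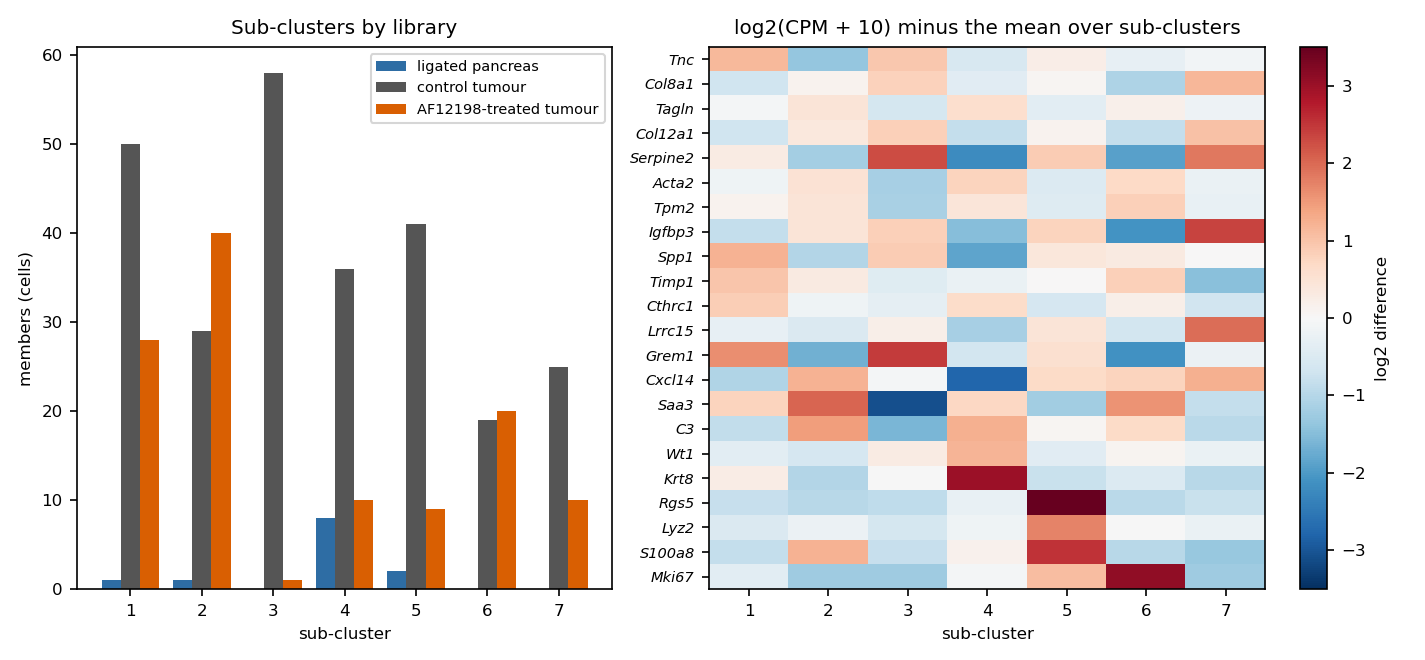
The left panel shows the number of members of each library in each sub-cluster, and the right panel the log2(CPM + 10) of 22 genes in each sub-cluster minus the gene's mean over the 7, with red above and blue below it. Sub-cluster 3 holds 58 control members and 1 treated member, and sub-cluster 2 holds 29 and 40.

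The 12 members of the ligated pancreas were looked at one by one. Pericyte markers summed to 1836 CPM in them, and 175 of 176 UMIs of Rgs5, a regulator of G-protein signalling typical of pericytes, lay in 2 cells with 63 and 112. Both also had Notch3 and Pdgfrb and no Pdgfra, markers that pericytes carry. Of the 12, 9 had Pdgfra, the receptor of most fibroblasts, and 8 fell into sub-cluster 4. Tnc led in 6, Tagln in 4, and Col8a1 and Col12a1 in 1 each. Saa3 stood at 1928 CPM (1706 to 2172) and C3 at 1864 CPM, against 120 and 969 CPM in control tumour members and 788 and 3900 CPM in ligated Dpt-type cells. Igfbp3, at 6 UMIs or 42.7 CPM, and Lrrc15, at 1 UMI, were low in them. As 1 cell held 53713 of their 140532 UMIs, these sums weigh that cell heavily, and no further comparison was made.

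The treatment comparison set members of the treated tumour against members of the control tumour. A gene counted as higher or lower at 1.5-fold on the log2(CPM + 1) scale with the interval of the ratio on that side of 1. Of 6537 genes tested, 743 (11.4%) were higher and 1737 (26.6%) lower with AF12198, and the median of all genes stood at -0.26. Of the genes counted, 29.96% were higher. When the ratios were centred on that median, 1092 were higher and 849 lower, so that 56.3% of the genes counted were higher. Of the 743 higher genes 460 were also higher at this size in Dpt-type cells, and of the 1737 lower genes 852 were also lower there, in comparisons that use the same 2 libraries.

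Several contractile genes were higher in treated members. Of 22 tested, 6 were higher and 2 lower, beside 11.4% and 26.6% of all genes, with a median of 0.23, or -0.02 in Dpt-type cells. Tagln, among the 6, is a gene of the rule and led in 58.5% of treated against 20.2% of control members. Acta2 and Tpm2 rose with Tagln across members, so for them treatment and the choice of cells cannot be told apart. The comparison was not repeated with Tagln left out of the rule. Acta2 rose from 1088 to 1836 CPM, a ratio of 1.69 (1.61 to 1.77), and Tagln from 1328 to 2429 CPM, 1.83 (1.75 to 1.91). In Dpt-type cells the ratios were 1.03 for Acta2 and 1.495 for Tagln. Tpm2 rose from 412 to 1064 CPM (2.58), Myl9 from 108 to 206 (1.92), Actg2 from 60.2 to 184 (3.06) and Cnn1, calponin of smooth muscle, from 17.0 to 70.2 (4.13, with an interval of 2.97 to 5.81). Actn4, an actinin, and Vcl were the lower ones, at 1.71 and 1.55 times as high in the control tumour. Myh11, smooth muscle myosin, went from 43 to 100 UMIs, or 14.1 to 53.2 CPM (3.78, 2.62 to 5.54), while in Dpt-type cells the ratio was 0.521.

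The smooth muscle sum moved with these genes, from 284 to 472 CPM, and the pericyte sum the other way, from 250 to 161 CPM. Their part in the result was not tested. In members with fewer than 2 UMIs of pericyte and smooth muscle genes, 69 and 24 cells, the log2 ratio of Tagln was 0.72, against 0.87 in all members. For Acta2 it was 0.23, against 0.75. The Acta2 difference is therefore not held at 1.5-fold in those cells. Members were left out by raw UMIs of related contractile genes, and treated members were deeper (median 16544 against 9437.5 UMIs). These values therefore describe only the cells left. There 475 genes were higher and 671 lower, of which 321 and 436 were among those counted with all members.

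The myofibroblastic CAF list moved in both directions. Of 19 genes tested, 5 were higher and 6 lower, beside 11.4% and 26.6% of all genes, with a median of -0.33 near that of all genes, -0.26. Col8a1 was 2.16 times as high in the control tumour (2.04 to 2.30), Tnc 1.66 times (1.58 to 1.75), Inhba 2.01 times and Col11a1 1.89 times, of which Col8a1 and Tnc are genes of the rule. Outside that list, Serpine2 was 2.51 times as high in the control tumour (2.34 to 2.70). For Serpine2 the Dpt-type ratio of treated over control was 1.04. Thy1, a surface glycoprotein, was 2.205 times as high in the control tumour, at 634 and 288 CPM, with 490 and 350 in T cells. Lrrc15 rose from 64.4 to 127 CPM in all members, and turned to a log2 ratio of -0.52 without members that carry pericyte or smooth muscle UMIs. Col12a1 (1.26 times as high in the control tumour) and Igfbp3 (1.38 times) did not pass, and of the fibrillar collagens 1 of 7 (Col11a1) was lower.

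Members with treatment had higher levels of several acute-phase and chemokine genes. Of 22 inflammatory CAF genes tested, 9 were higher and 1 lower (Ptgs2), beside 11.4% and 26.6% of all genes. Their median was 0.48 against 0.05 in Dpt-type cells and -0.26 over all genes. Hp, haptoglobin, rose from 43.5 to 317 CPM, 7.30 times (6.04 to 8.88), and Saa3 from 120 to 765 CPM, 6.36 times (5.67 to 7.15). In Dpt-type cells Hp went from 408 to 747 CPM, and Saa3 was at 2143 and 2003 CPM, so members came nearer to the Dpt-type level of both. Ccl2, a monocyte chemokine, rose from 272 to 664 CPM (2.44), Cxcl14 from 1018 to 2232 (2.19), Cxcl5 from 24.2 to 67.5 (2.79) and Il11 from 46.1 to 80.8 (1.75). Il6 went from 164 to 123 CPM and did not pass. T cells held 42.3 and 22.5 CPM of Saa3 and 22.2 and 27.1 of Hp. Lcn2, at 11.8 and 30.8 CPM, and Ptgs2, at 565 and 343, lay below T cells (45.7 and 61.7, and 997 and 372), and their differences are not read as changes in members. Without members that carry pericyte or smooth muscle UMIs the log2 ratio of Saa3 was 1.57, against 2.66 in all members. Hp leads sub-cluster 2, which is 11.2% of control and 33.9% of treated members, so its increase and the make-up of the members cannot be told apart. The same limit holds for Saa3, at 851 and 614 CPM in sub-clusters 2 and 6 and 14.9 CPM in sub-cluster 3. Not every leading gene of sub-cluster 2 rose: Thbs4 and Pi16 were lower in treated members, at log2 ratios of -0.92 and -0.49.

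Other large increases were Mmp3, stromelysin, from 85.01 to 335 CPM (3.94), Ccl19 (4.36), the early growth response gene Egr4 (4.47), Serpina3n (3.24) and the secretory-pathway genes Ssr4 (3.52) and Ppib (3.36). Ccl19 and Serpina3n also lead sub-cluster 2, and the same limit holds for them. Ssr4 and Ppib stood at 168 and 516 CPM and at 249 and 749 CPM in Dpt-type cells, so they moved alike in both classes. Of 18 cell cycle genes 8 were higher and none lower, beside 11.4% and 26.6% of all genes. Their median was 0.47 against -0.13 in Dpt-type cells. Sub-cluster 6, led by proliferation genes, is 7.36% of control and 16.9% of treated members. These increases and the make-up of the members therefore cannot be told apart. Mki67 went from 33.4 to 53.2 CPM (1.59) and Tk1, thymidine kinase, from 6.87 to 26.6 CPM (3.87), while T cells held 121 and 132 CPM of Mki67, above the members. Without members that carry pericyte or smooth muscle UMIs the log2 ratio of Mki67 was 2.48.

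Among the largest decreases were Grem1, an antagonist of BMPs, from 125 to 19.7 CPM (6.36 times as high in the control tumour, 4.54 to 9.18), Lpl, lipoprotein lipase, from 987 to 177 CPM (5.57 times), the bradykinin receptor Bdkrb2 (7.69 times) and the guidance cue Ntn1 (6.76 times). Grem1 fell in Dpt-type cells too, to 0.109 of the control level. Grem1, Lpl, Bdkrb2 and Serpine2 lead sub-cluster 3, which holds 58 control members and 1 treated member, so these decreases and the make-up of the members cannot be told apart. The UMIs of Grem1 numbered 383 and 37, and without members that carry pericyte or smooth muscle UMIs its log2 ratio turned to 2.36. Rgs5 and Notch3, pericyte genes, went from 110 to 3 and from 78 to 12 UMIs, which put the control tumour 22.5 times (7.51 to 111) and 4.00 times as high.

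The interleukin-1 and NF-kB list also moved in both directions. Of 27 tested, 7 were higher and 9 lower, beside 11.4% and 26.6% of all genes, with a median of -0.44 against -0.39 in Dpt-type cells. Il1r1 itself went from 99.1 to 149 CPM, 1.51 times, with a ratio of 0.949 in Dpt-type cells. The antagonist Il1rn fell from 104 to 33.5 CPM and the cytokine Il1b from 290 to 114 CPM, but T cells held 616 and 367 CPM of Il1rn and 1620 and 1120 CPM of Il1b, above the members in both libraries, so the members' levels are not read as expression. Sod2, a target of NF-kB, rose 2.18 times, while Tnfaip3 and Vcam1 were 2.01 and 2.03 times as high in the control tumour. T cells, which may express the gene, held 798 and 508 CPM of Tnfaip3 against 164 and 81.9 in members. In Dpt-type cells the ratios of treated over control were 1.37, 0.439 and 0.518 for these 3.

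Calcineurin and NFAT genes were mostly lower with AF12198: of 18 tested, 1 was higher and 11 lower, beside 11.4% and 26.6% of all genes, with a median of -0.71 against -0.49 in Dpt-type cells. The calcineurin subunits Ppp3ca and Ppp3r1 were 1.74 and 2.07 times as high in control members, the transcription factor Nfatc1 1.55 times, and the immediate-early genes Nr4a1 and Egr3 2.10 and 2.16 times. Rcan1, an inhibitor and target of calcineurin, rose 1.97 times, from 86.0 to 169 CPM. Immediate-early and heat-shock genes that collagenase digestion is known to induce moved the same way. Of 21 tested, 10 were lower and 1 higher, beside 26.6% and 11.4% of all genes, with a median of -0.52. T cells showed lower levels as well, with Nr4a1 at 773 and 253 CPM and Ppp3r1 at 117.8 and 57.4, and Nfatc1 and Ppp3ca were no higher in members than in T cells of the control tumour. The part of digestion and free RNA in this was not tested.

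MHC class II genes were lower in 6 of 6 cases, beside 26.6% of all genes, with a median of -1.46 against -0.15 in Dpt-type cells. Cd74 went from 303 to 80.3 CPM, H2-Aa from 153 to 50.5 and Ctss from 71.9 to 17.0. T cells held 1600 and 1730 CPM of Cd74, 815 and 768 of H2-Aa and 491 and 437 of Ctss. Levels of these 3 in members were below those in T cells, a cell type not known for these genes, so they are not read as expression of the members or as a change in it. The T cells' own macrophage marker sum was 1693 and 2574 CPM, and sub-cluster 5, with all 7 macrophage markers raised and 41 control and 9 treated members, had 455 CPM of H2-Ab1. The source of these UMIs was not tested. Of the epithelial list 4 of 4 genes were lower, beside 26.6% of all genes, with a median of -3.34. The list's sum of 235 and 18.6 CPM was below the 824 and 430 CPM in T cells. Its gene Krt8, a keratin, stood at 111 and 6.38 CPM in members and 361 and 128 in T cells, and the sum of the acinar enzymes went from 23.2 to 137 CPM in members and from 567 to 4492 CPM in T cells. With the T cell level subtracted from every gene, 537 genes were higher and 468 lower of 2280 tested.

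**Figure D5:**
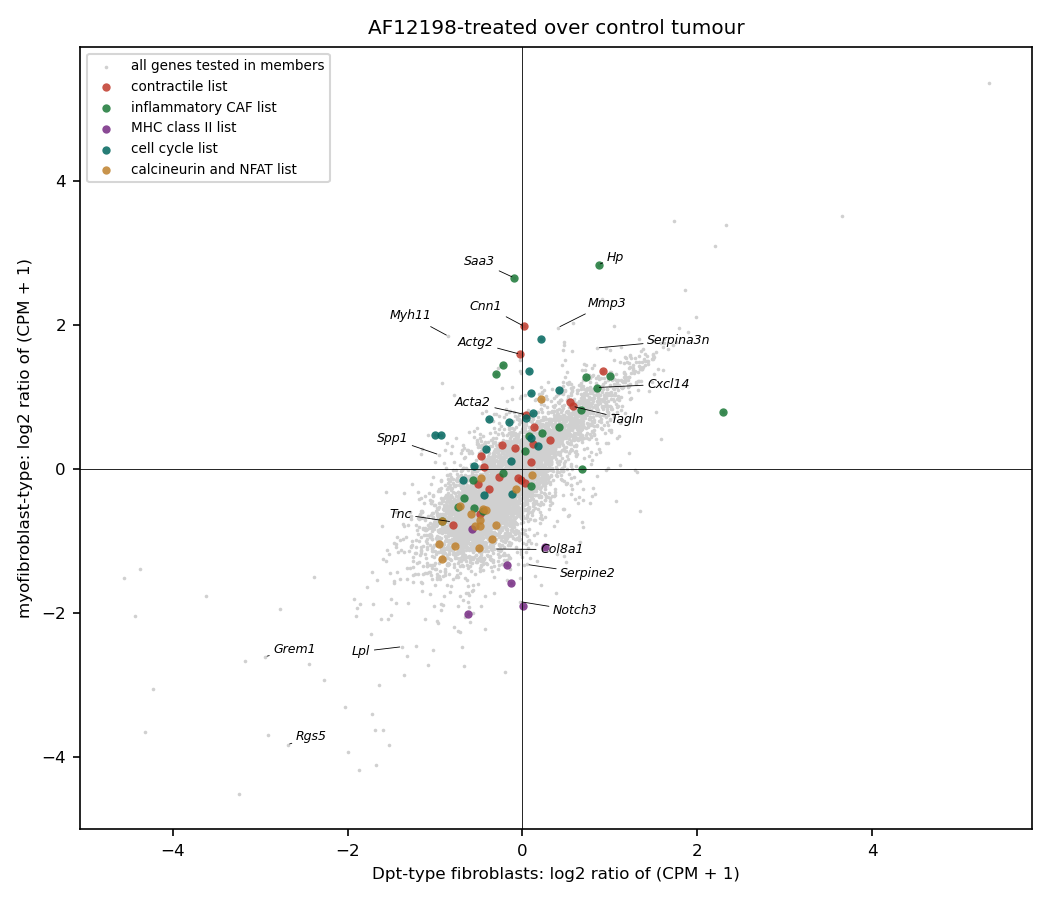
Each point is a gene tested in members, with the log2 ratio of (CPM + 1) of AF12198-treated over control tumour in Dpt-type cells on the x axis and in members on the y axis. Colours mark 5 lists. Saa3 and Myh11 lie high on the y axis with members at 6.36 and 3.78 times the control level, and the MHC class II genes lie low with a median of -1.46 in members.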

How the data were processed

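The deposited values are whole-number counts of UMIs per gene and barcode, 1 matrix for each of the 4 libraries. They came from 10x Genomics 3' libraries (v3 chemistry) per the labels' protocols, processed with Cell Ranger 6.0.0 on mm10 per the submitters' processing notes. Neither cell calling nor the annotation release is stated in these sources. Lowest barcode totals were 500, 500, 760 and 500 UMIs.

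Python 3.11.15, NumPy 2.4.6, SciPy 1.17.1, pandas 2.3.3, Scanpy 1.11.5 and matplotlib 3.10.9 were used. UMIs were summed over the cells of a class and library and given as CPM with exact Poisson intervals, ratios with exact conditional intervals, shares with Clopper-Pearson intervals, and log2 ratios with a pseudocount of 1 CPM. A gene was tested with at least 20 UMIs in both groups together and 20 CPM in 1 of them. A fold against 0 UMIs would be a lower bound against 3 counts, and none is printed. T cells were kept barcodes with at least 2 UMIs of Cd3 genes and under 1% of fibroblast UMIs. Doublets were kept, and Scrublet scores were used only in an alternative that removes the 5% of barcodes with the highest scores in each tumour, since the automatic call marked 1 of 19868 barcodes in the treated tumour and so did not work there.

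Named genes are the rule's genes, the markers, the largest changes within each list, and the 12 highest and 12 lowest ratios of each comparison, without genes whose CPM in T cells was at least 0.5 times that in the class. In the first comparison these were ranked by the smaller ratio of both tumours. The members, lists and tests were chosen with earlier results of these data known. Genes shown by cell, the co-variation pairs, the Y-linked sum, the sub-clusters (Leiden at resolution 0.8 on 1500 genes and 15 principal components, the second of 2 versions run) and the CArG box (after other motifs were looked at) were chosen after values were seen. Alternatives are a stricter cell filter, other gates and margins, other scalings, and leaving out cells with UMIs of other cell types. Of 40 symbols carried by 2 gene IDs, the ID with more UMIs was used. Gene positions are from GENCODE (GRCm38).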

Additional observations from a re-analysis of the deposited data

Results flagged for a closer look

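Of 396 named or listed genes tested with AF12198, 18 had the interval of the ratio on one side of 1 in myofibroblast-type cells and on the other side in Dpt-type cells of the same 2 libraries. Genes higher in members and lower in Dpt-type cells on the log2 scale were Saa3 (2.66 and -0.10), Myh11 (1.85 and -0.85), Cxcl5 (1.44 and -0.23), Lcn2 (1.32 and -0.30), Mmp13 (0.78 and -0.46), Cxcl9 (0.57 and -0.52), Tln1 (0.33 and -0.24), Wnt4 (0.21 and -0.15) and Spp1 (0.20 and -0.95). Genes lower in members and higher in Dpt-type cells were H2-Eb1 (-1.09 and 0.26), Thbs4 (-0.92 and 0.26), C1qb (-0.81 and 0.70), Pi16 (-0.49 and 0.18), Igfbp3 (-0.47 and 0.64), Fosb (-0.37 and 0.19), Wnt2 (-0.35 and 0.56), Fstl1 (-0.15 and 0.06) and Bgn (-0.13 and 0.11). The intervals cover counting error only, and with 1 library per group the differences were not tested. The ratios were not centred, and the median of all genes stood at -0.26 in members and -0.24 in Dpt-type cells. Saa3, Cxcl5, Tln1 and Wnt4 in Dpt-type cells, and Fstl1 and Bgn in members, lay nearer 0 than these medians. For these genes the opposite sides therefore depend on the ratios not being centred. Lcn2 lay below T cells in both libraries and is not read as a change in members. H2-Eb1 is an MHC class II gene and C1qb a macrophage marker, and neither is read as a change in members. Macrophage markers summed to 315 and 188 CPM in members against 1693 and 2574 CPM in T cells (control and treated). Spp1 in Dpt-type cells, at 652 and 336 CPM, lay below T cells (744 and 674 CPM), so its Dpt-type side is not read as a change. Without members that carry pericyte or smooth muscle UMIs, Spp1 in members stood at -1.16, on the same side as in Dpt-type cells, and Saa3 at 1.57.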

How the results depend on the processing

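The share of fibroblasts was 18.1% (control) and 16.2% (treated) with Tagln left out of the rule, which turned their ratio to 0.896, and 26.4% and 31.8% with Lum left out of the Dpt-type sum. Under the other 8 alternatives the ratio lay between 1.20 and 1.33, and its interval began above 1 under 3 of them. Against Dpt-type cells, higher genes numbered 64 with a pseudocount of 10 CPM, 203 without the filter on low values, 236 with the T cell level subtracted and 58 without members that carry pericyte or smooth muscle UMIs. Lower genes numbered 322 without the filter and 116 without those members. With AF12198, lower genes numbered 849 when centred on the median of all genes, 468 with the T cell level subtracted and 671 without those members, when 475 were higher. Leaving out those members also turned the log2 ratio of Grem1 with AF12198 to 2.36, that of Lrrc15 to -0.52, and the medians of the smooth muscle list against Dpt-type cells to -1.10 (control) and -2.81 (treated), with 69 and 24 members left. The smooth muscle medians follow from how this alternative is made, since it leaves out members, and no Dpt-type cells, by UMIs of these genes. For Grem1 and Lrrc15, apart from the fewer cells, the cause was not tested. Of the list medians, 704 values under alternatives stayed within a fixed log2 distance of the reported value, 163 moved and 2 reversed. Of the named genes, 552 values stayed within the interval for counting error, 150 moved and 2 reversed. The alternative that leaves out cells with over 0.3% of UMIs in markers of other types was added after the data had been seen and gave ratios and counts near those reported. No paired analysis was possible because each group has 1 library, and for the same reason no replicate could be left out. Depth limits the 12 ligated members most, and genes under the filter on low values were not compared.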
